A study of Arabidopsis thaliana with 30 samples.

Results

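The starch genes examined here were 42 genes of Arabidopsis that make, phosphorylate, degrade or export starch and its products, chosen by name from the known pathway, out of 37051 genes in the count table. Earlier results of these data were known when they were chosen. They fall into 8 roles, from synthesis (11 genes) to plastid transporters (4 genes). Transcripts were counted in nuclei from the second lowest elongated internode of the inflorescence stem of Col-0 plants. Each line carried a transgene for a histone H4 and GFP fusion (H4-GFP) behind a tissue promoter, and nuclei were sorted by their GFP signal. GFP-positive nuclei came from the starch sheath (SCRpro:H4-GFP), fibers (NST3pro:H4-GFP), differentiating vessel elements (VND7pro:H4-GFP), the proximal cambium and differentiating xylem (PXYpro:H4-GFP), the distal cambium and differentiating phloem (SMXL5pro:H4-GFP), differentiated phloem (APLpro:H4-GFP) and the epidermis (LTP1pro:H4-GFP). GFP-negative nuclei, which carry the same transgene, came from the NST3pro, SMXL5pro and APLpro lines. A tissue is therefore defined by the activity of a single promoter, and plants had been moved from short to long days to induce flowering.

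Starch is built in plastids from ADP-glucose, which ADP-glucose pyrophosphorylase (AGPase) makes from glucose 1-phosphate. Starch synthases and branching enzymes then assemble the granule, and debranching enzymes trim it. For breakdown, dikinases phosphorylate the granule surface, phosphatases remove the phosphate again, and beta-amylases release maltose, which leaves the plastid through MEX1. The starch sheath is the innermost cortical layer of the stem, related to the endodermis, and its starch-filled amyloplasts sediment and are known for gravity sensing. The names ApL1 to ApL4 stand for large subunits of AGPase. They are unrelated to ALTERED PHLOEM DEVELOPMENT (APL), the gene whose promoter drives the APLpro line.

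The 30 libraries held between 725545 and 18335693 reads on genes. The study left out 4 GFP-positive libraries (NST3pro replicate 2, VND7pro replicate 6, APLpro replicate 15 and LTP1pro replicate 19), so the tissue tests used 17 libraries, with 3 for SCRpro, PXYpro and SMXL5pro and 2 for each of the other tissues. Of 19 tissue markers, 18 had their highest mean in the assigned tissue, the exception being LTP1, highest in VND7pro. The study kept these libraries partly because characterized genes then followed their known profiles, so this count is not an independent check. LTP1pro replicate 21 was made from 10800 nuclei and all others from 15000. Levels are given as CPM, read counts relative to the library total after TMM scaling of the totals. A lower level can mean fewer nuclei of a cell type or less RNA per nucleus, which cannot be told apart. Annotated pseudogenes, without the most covered ones, measured the background. In the 17 libraries their read density was between 0.696 (VND7pro replicate 4) and 6.02 CPM per kb (SMXL5pro replicate 12), and the number of starch genes above 2 times this density was 30 to 37 in SCRpro, 35 in both NST3pro, 33 to 36 in VND7pro, 27 to 36 in PXYpro, 15 to 28 in SMXL5pro, 21 to 30 in APLpro and 14 to 23 in LTP1pro libraries.

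Promoter sequences are shown for the beta-amylase genes BAM3, BAM1 and BAM5 and for GBSS1, because these 4 genes kept their difference in the starch sheath in every setting tried, and for BAM2, chosen after the motif search as the beta-amylase gene with a G-box. Each is the 250 bases before the annotated start of the gene in RefSeq TAIR10.1, 5′ to 3′ on the strand of the gene. Capitals mark a G-box (CACGTG). The windows are chr4:9607403-9607652, minus strand (BAM3), chr3:8640931-8641180, plus strand (BAM1), chr4:8669527-8669776, minus strand (BAM5), chr4:222039-222288, plus strand (BAM2) and chr1:11923867-11924116, minus strand (GBSS1).
BAM3: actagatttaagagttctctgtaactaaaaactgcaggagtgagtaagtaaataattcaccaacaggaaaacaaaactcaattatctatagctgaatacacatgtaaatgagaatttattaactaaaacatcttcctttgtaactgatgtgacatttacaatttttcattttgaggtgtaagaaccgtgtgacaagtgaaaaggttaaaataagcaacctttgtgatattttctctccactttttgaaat
BAM1: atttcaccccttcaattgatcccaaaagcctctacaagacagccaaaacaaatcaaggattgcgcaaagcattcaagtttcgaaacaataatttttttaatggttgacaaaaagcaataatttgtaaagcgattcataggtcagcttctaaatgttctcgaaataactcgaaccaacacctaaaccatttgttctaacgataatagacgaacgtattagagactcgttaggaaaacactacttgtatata
BAM5: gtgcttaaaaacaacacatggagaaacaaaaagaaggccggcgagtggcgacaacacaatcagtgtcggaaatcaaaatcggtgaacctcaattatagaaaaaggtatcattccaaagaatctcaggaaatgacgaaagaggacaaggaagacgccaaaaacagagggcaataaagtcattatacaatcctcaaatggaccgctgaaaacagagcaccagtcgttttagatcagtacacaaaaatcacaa
BAM2: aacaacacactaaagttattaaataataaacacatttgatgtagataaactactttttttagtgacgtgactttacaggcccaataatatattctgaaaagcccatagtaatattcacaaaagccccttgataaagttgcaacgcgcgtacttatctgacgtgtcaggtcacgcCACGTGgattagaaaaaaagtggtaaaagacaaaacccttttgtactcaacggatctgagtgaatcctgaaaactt
GBSS1: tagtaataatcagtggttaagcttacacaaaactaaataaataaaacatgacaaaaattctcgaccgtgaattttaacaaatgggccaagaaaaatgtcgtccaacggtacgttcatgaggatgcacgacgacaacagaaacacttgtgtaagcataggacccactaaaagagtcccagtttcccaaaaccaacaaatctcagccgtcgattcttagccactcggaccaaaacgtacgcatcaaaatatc
The windows of BAM3, BAM1, BAM5 and GBSS1 held no G-box on either strand, and that of BAM2, a plastidial beta-amylase, held one. Over all starch genes, 10 of 42 windows held a G-box (SS1, SS3, SS4, SBE2.1, LSF1, BAM2, DPE1, PHS1, PHS2 and PTST1), against 6.49% of 27443 protein-coding genes. The evening element (AAAATATCT) was found in 4 windows (PGM1, ISA3, PWD and GPT2), against 2.36%, and TATCCA in 4 (SS4, ISA2, AMY2 and PHS1), against 13.6%. Both strands were searched and 13 of the 42 windows reach into another gene. A match describes letters and not a bound site.

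The first comparison asked which starch genes differed among the 7 tissues. BAM3, BAM1, GBSS1 and BAM5 were highest in the starch sheath, GWD2 and AMY1 in differentiated phloem, TPT in fibers, and SS4 and GPT1 in vessel elements. Of 42 starch genes, 10 differed at an adjusted p of 0.01 (23.8%), against 26.1% of the 32659 genes tested, so the share is near the background. The tenth was APS1. At an unadjusted p below 0.05 the number was 24 (57.1%), against 48.3% of all genes tested. All p-values of tissues come from edgeR's quasi-likelihood test with Benjamini-Hochberg adjustment over all genes tested. With all 21 GFP-positive libraries 6 starch genes passed (BAM1, BAM3, BAM5, GBSS1, GWD2 and TPT), and with DESeq2 23 passed. The genes added with DESeq2 were AMY3, ApL2, ApL3, ApL4, BAM2, GPT2, GWD1, SEX4, LSF1, LSF2, ISA1, DPE1 and AT1G42430. The 26.1% holds for edgeR and the 17 libraries, so neither count can be set against it. Below, a gene that did not pass is one that missed edgeR's threshold.

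**Figure D1:**
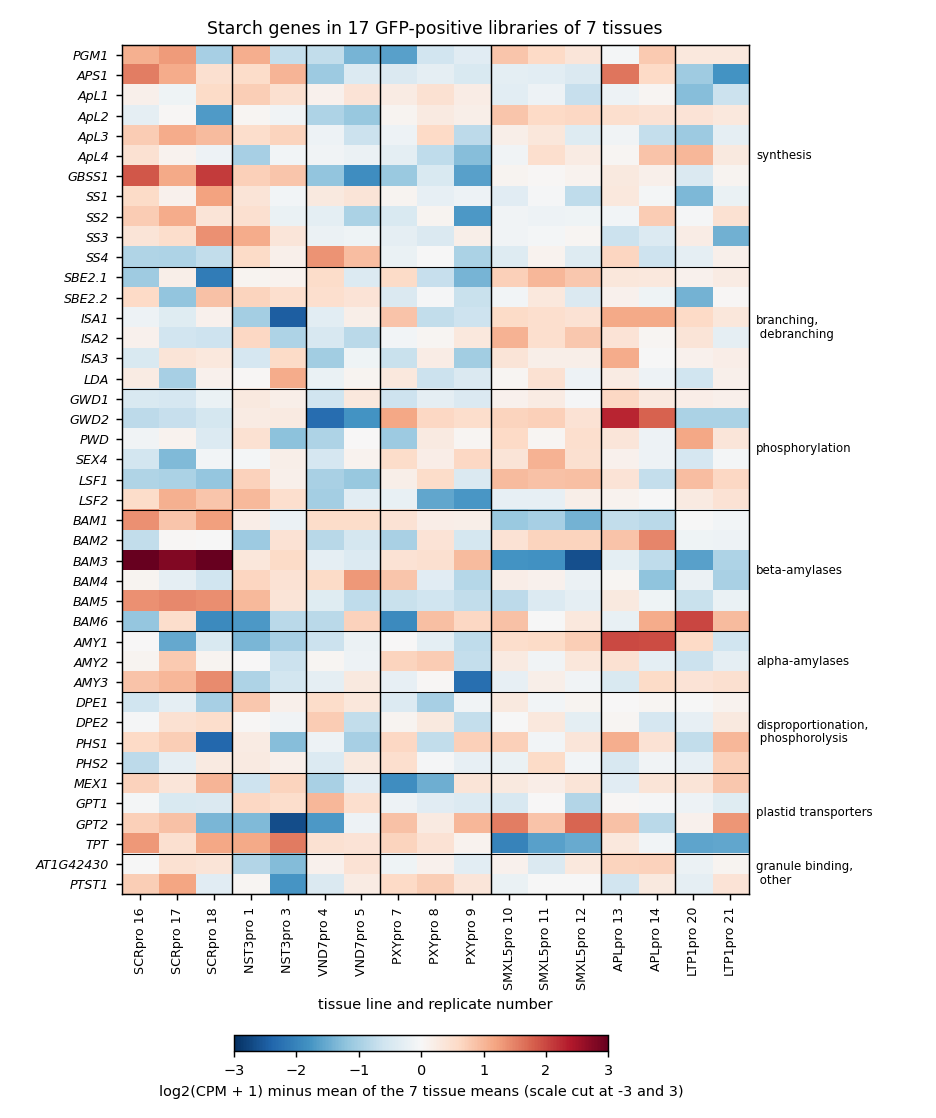
Levels of the 42 starch genes (rows, by role) in 17 GFP-positive libraries (columns), as log2(CPM + 1) minus the mean of the 7 tissue means. BAM3 stands out in all 3 SCRpro libraries, and GWD2 and AMY1 stand out in both APLpro libraries.

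Among all starch genes, 14 had their highest tissue mean in SCRpro (33.3%), against 10.6% of the 33099 genes with a tissue mean of at least 1 CPM. The 14 were PGM1, ApL3, GBSS1, SS1, SS2, SS3, LSF2, BAM1, BAM3, BAM5, AMY3, DPE2, MEX1 and PTST1. For most of them the second tissue was close, and only for BAM3 did SCRpro differ from the second tissue at an adjusted p of 0.01. In edgeR's fit SS3 and MEX1 were not higher in SCRpro than in the second tissue (log2 fold changes of -0.04 and -0.02). The cut of 1 CPM kept genes near the background, whose density was higher in SMXL5pro, APLpro and LTP1pro than in the other tissues. The shares of all genes by highest tissue are therefore not a like measure for genes well above the background. APLpro was highest for 9 starch genes (21.4%, against 14.03% of all genes), SMXL5pro for 6 (14.3%, against 16.2%), NST3pro for 5 (11.9%, against 14.4%), LTP1pro for 4 (9.52%, against 19.6%), VND7pro for 3 (7.14%, against 16.1%) and PXYpro for 1 (2.38%, against 9.08%). The summed CPM of the 42 genes was 2617 to 3474 in SCRpro libraries, against 1306 to 2185 in the other 14 libraries. Much of the SCRpro sum came from BAM3 and BAM1, with means of 761 and 542 CPM there. The sum therefore does not show a rise over the whole list.

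In starch sheath nuclei, 6 of 42 starch genes were higher than in the mean of the other 6 tissues, where 6.36% of all genes tested were higher, and 2 were lower, where 1.59% were. Higher were the beta-amylases BAM3, BAM5 and BAM1, the starch synthase GBSS1, the AGPase subunit ApL3 and the transporter TPT. Lower were SS4 and GWD2, of which GWD2 turned positive with background-subtracted counts (described with that gene). The median log2 fold change of the 42 was 0.13, against -0.04 over all genes tested. With all 21 libraries 4 remained, all higher (BAM3, GBSS1, BAM5 and BAM1).

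**Figure D2:**
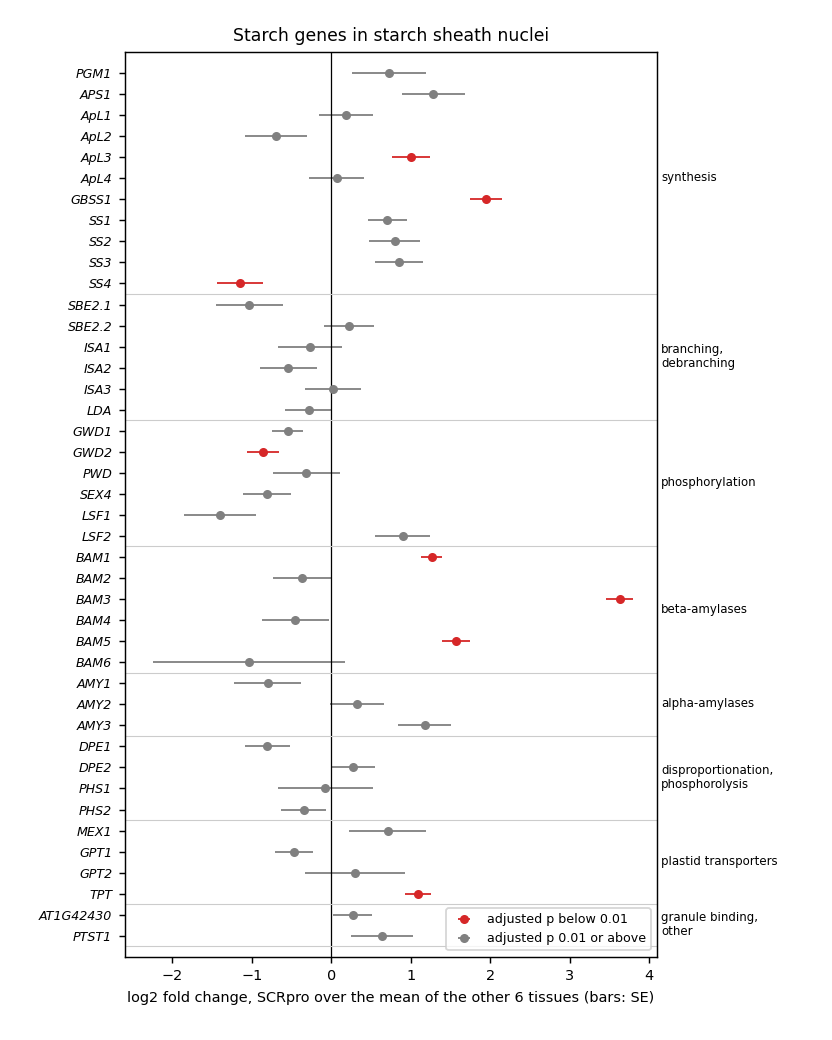
Log2 fold change of each starch gene in SCRpro over the mean of the other 6 tissues, with SE as bars. BAM3 lies at 3.63, apart from the other genes, and 8 genes pass the threshold.

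Beta-amylases cut maltose from chain ends. BAM3 (AT4G17090), the main plastidial beta-amylase of leaves at night, had 710, 577 and 996 CPM in SCRpro libraries. The values in the other tissues were 104 and 123 CPM in NST3pro, 68.4 and 62.5 CPM in VND7pro, 112, 117 and 161 CPM in PXYpro, 23.2, 22.9 and 12.6 CPM in SMXL5pro, 66.9 and 48.6 CPM in APLpro, and 26.0 and 43 CPM in LTP1pro. No library of another tissue reached the lowest SCRpro library, and SMXL5pro was lowest. BAM3 was higher in SCRpro than in the other 6 tissues by a log2 fold change of 3.63 ± 0.17 (SE, adjusted p = 1.59e-12), and higher than in each of them, by 2.48 ± 0.26 against PXYpro (adjusted p = 2.05e-06) to 5.26 ± 0.30 against SMXL5pro (adjusted p = 5.86e-11). It was the only starch gene predominant in a tissue, which means that it passed a one-sided test against each other tissue with every log2 fold change above 1 (adjusted p = 3.16e-05). Of all genes tested, 1.69% were predominant in some tissue. The call for BAM3 was also made in each of the 17 fits with a library left out and in the 4 other settings tried with edgeR. BAM3 reads were 112 to 324 times the pseudogene density in SCRpro, and 1.36 to 3.00 times that density in SMXL5pro. Its gene shares 21.8% of its length with neighbouring genes, whose shared reads were discarded.

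BAM3 was also lower in SMXL5pro than in the other tissues (log2 fold change -2.51 ± 0.24, adjusted p = 1.31e-07) and lower in LTP1pro (-1.41 ± 0.27, adjusted p = 0.000994). The LTP1pro call was lost with all 21 libraries, with background-subtracted counts and without replicate 20. The LTP1pro library that the study left out had 130 CPM of BAM3.

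BAM1 (AT3G23920), a plastidial beta-amylase known for starch breakdown in guard cells and under stress, had 630, 429 and 566 CPM in SCRpro libraries. It had 279 and 215 CPM in NST3pro, 357 and 356 CPM in VND7pro, 327, 279 and 273 CPM in PXYpro, 111, 121 and 90.5 CPM in SMXL5pro, 144 and 139 CPM in APLpro, and 241 and 230 CPM in LTP1pro. SCRpro did not overlap any other tissue, but its distance from VND7pro, the second, missed the threshold (log2 fold change 0.47 ± 0.21, adjusted p = 0.15). BAM1 was higher in SCRpro by 1.26 ± 0.13 (adjusted p = 5.11e-07) and in VND7pro by 0.71 ± 0.16 (adjusted p = 0.00299), and lower in SMXL5pro by -1.43 ± 0.16 (adjusted p = 1.19e-06) and in APLpro by -0.90 ± 0.18 (adjusted p = 0.00389). The APLpro call was lost without replicate 13 or 14, and the VND7pro call without replicate 4 or 5, with RLE scaling (another scaling of library totals), with all 21 libraries and with background-subtracted counts, in which each library's pseudogene read density is taken off. In the left-out LTP1pro replicate 19 BAM1 had 575 CPM, within the range of SCRpro.

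BAM5 (AT4G15210), a cytosolic beta-amylase, had 131, 136 and 133 CPM in SCRpro libraries, above every library of the other tissues. NST3pro followed with 97.9 and 65.0 CPM, and the other tissues lay between 28.3 and 60.8 CPM. BAM5 was higher in SCRpro by a log2 fold change of 1.56 ± 0.17 (adjusted p = 9.69e-07), but SCRpro against NST3pro missed the threshold (0.64 ± 0.27, adjusted p = 0.12). BAM5 also passed as higher in NST3pro (0.82 ± 0.21, adjusted p = 0.00708) and lower in PXYpro (-0.82 ± 0.20, adjusted p = 0.00763), calls that were kept in 11 and 7 of 17 fits with a library left out. The NST3pro call was lost with all 21 libraries, RLE scaling, background-subtracted counts and DESeq2 (adjusted p up to 0.32), and the PXYpro call with all 21 libraries. BAM2, BAM4 (a regulator without catalytic activity) and BAM6 did not pass among tissues. BAM6 had 0 to 14 CPM over the 17 libraries.

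The makeup of the family per gene length followed these values. Background reads were not taken off for this and later shares per length, and their density was higher in SMXL5pro, APLpro and LTP1pro than in the other tissues. Per kb of gene body, introns included, BAM3 made up 58.1% of the summed beta-amylase level in SCRpro (54.4% to 64.4% over libraries), against 11.1% in SMXL5pro, 12.5% in LTP1pro, 16.5% in VND7pro, 21.9% in APLpro, 28.8% in NST3pro and 32.0% in PXYpro. In every tissue other than SCRpro, BAM1 held the largest share, between 40.3% in APLpro and 66.9% in VND7pro. The summed level was 531 CPM per kb in SCRpro, against 71.2 to 166 CPM per kb in the other tissues. Over the 42 genes, BAM1, TPT and BAM3 had the highest levels per length in the mean of the tissues, with 84.0, 72.5 and 69.1 CPM per kb, and GBSS1 followed with 18.8 CPM per kb.

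**Figure D3:**
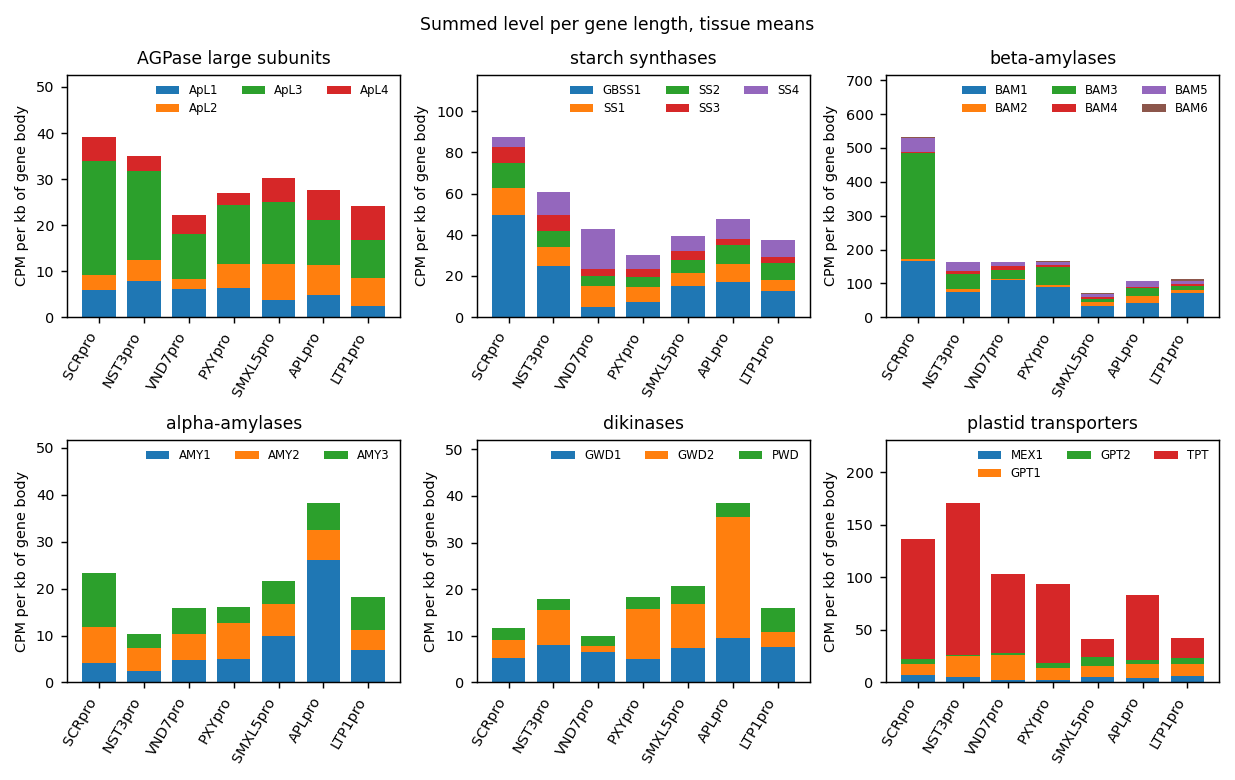
Mean level per kb of gene body (stacked bars, CPM per kb) of the genes of 6 families in 7 tissues, with background reads included. BAM3 fills 58.1% of the beta-amylase bar in SCRpro, GWD2 67.2% of the dikinase bar in APLpro, and SS4 44.8% of the starch synthase bar in VND7pro.

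Among genes of synthesis, GBSS1 (AT1G32900), the granule-bound synthase that makes amylose, had 185, 112 and 219 CPM in SCRpro libraries. It had 82.9 and 89.9 CPM in NST3pro, 21.7 and 13.1 CPM in VND7pro, 22.5, 36.6 and 15.5 CPM in PXYpro, 53.5, 51.5 and 54.3 CPM in SMXL5pro, 61.5 and 55.6 CPM in APLpro, and 36.7 and 53.3 CPM in LTP1pro. Every SCRpro library lay above all others. GBSS1 was higher in SCRpro by a log2 fold change of 1.95 ± 0.20 (adjusted p = 3.80e-07), and lower in VND7pro (-1.72 ± 0.32, adjusted p = 0.000418) and PXYpro (-1.21 ± 0.25, adjusted p = 0.00159). SCRpro against NST3pro missed the threshold (0.91 ± 0.33, adjusted p = 0.060). The VND7pro call was lost without replicate 5, and the PXYpro call without replicate 7 or 9.

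SS4 (AT4G18240), which is needed for the start of new granules, showed another order. It had 113 and 83.6 CPM in VND7pro libraries, 65.1 and 48.2 CPM in NST3pro and 68.3 and 28 CPM in APLpro. It was between 22.0 and 48.4 CPM in PXYpro, SMXL5pro and LTP1pro, and had 22.7, 22.4 and 25.7 CPM in SCRpro. SS4 was higher in VND7pro (log2 fold change 1.40 ± 0.27, adjusted p = 0.000502) and lower in SCRpro (-1.15 ± 0.29, adjusted p = 0.00914). The call in SCRpro was kept in 4 of 17 fits with a library left out, and was lost with all 21 libraries and with background-subtracted counts. The call in VND7pro was lost without replicate 4 and with background-subtracted counts. Per length, GBSS1 made up 55.9% of the summed starch synthase level in SCRpro and SS4 5.45%, whereas in VND7pro GBSS1 made up 11.5% and SS4 44.8%. The chain-elongating synthases SS1, SS2 and SS3 did not pass among tissues, with log2 fold changes of 0.70 ± 0.25, 0.80 ± 0.32 and 0.86 ± 0.30 in SCRpro.

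AGPase consists of small, catalytic and large, regulatory subunits. The large subunit gene ApL3 (AT4G39210) had 85.4, 109 and 97.9 CPM in SCRpro libraries, 73.1 and 79.7 CPM in NST3pro, and 23.2 to 76.8 CPM in the other tissues. SCRpro and NST3pro were close (0.29 ± 0.36, adjusted p = 0.66). ApL3 was higher in SCRpro by a log2 fold change of 1.00 ± 0.24 (adjusted p = 0.00708) but missed the threshold over the 7 tissues (adjusted p = 0.018). The call in SCRpro was lost with all 21 libraries, with background-subtracted counts, and without any of SCRpro replicates 16, 17 and 18, NST3pro 1, SMXL5pro 10, APLpro 14, VND7pro 5, PXYpro 7 or LTP1pro 20. ApL3 made up 63.5% of the large subunit level per length in SCRpro and 33.8% to 55.5% in the other tissues, with background reads included. ApL1 shares 80.8% of its gene body with other genes, so its level is uncertain.

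The small subunit gene APS1 (AT5G48300) had 31.7, 23.5 and 15.0 CPM in SCRpro libraries, 33.6 and 16.1 CPM in APLpro, 15.7 and 21.9 CPM in NST3pro, and 2.28 to 8.39 CPM in VND7pro, PXYpro, SMXL5pro and LTP1pro. No library of the first 3 tissues overlapped the other 4. In the SMXL5pro and LTP1pro libraries, the reads of APS1 per kb were near or below the pseudogene density, so its level there is not above the background. APS1 differed over the 7 tissues (adjusted p = 0.00599), but passed in no tissue against the others, with adjusted p of 0.034 in SCRpro, 0.035 in APLpro and 0.037 in LTP1pro. Without SMXL5pro replicate 10, 11 or 12, APLpro 13, SCRpro 16 or LTP1pro 21 the difference over tissues was lost. PGM1, which supplies glucose 1-phosphate in plastids, and ApL1, ApL2 and ApL4 did not pass.

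**Figure D4:**
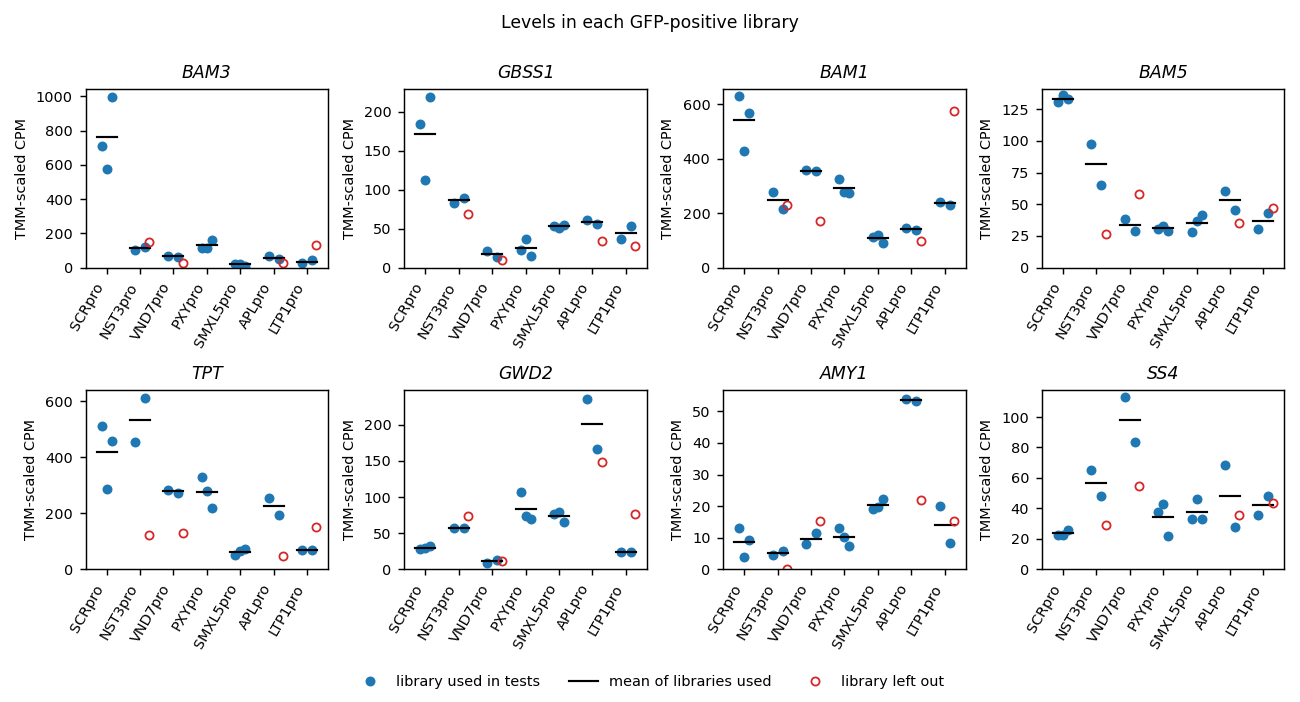
CPM of 8 starch genes in each GFP-positive library, with the libraries used in tests as filled points, their mean as a bar, and libraries the study left out as open points. BAM3, GBSS1, BAM1 and BAM5 are highest in SCRpro, TPT in NST3pro, GWD2 and AMY1 in APLpro, and SS4 in VND7pro.

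Transporters link the plastid to the cytosol. TPT (AT5G46110), the triose phosphate and phosphate translocator that exports carbon from chloroplasts, had 455 and 610 CPM in NST3pro libraries and 512, 287 and 457 CPM in SCRpro. It had 283 and 274 CPM in VND7pro, 328, 279 and 220 CPM in PXYpro, 255 and 195 CPM in APLpro, 50.7, 65.9 and 71.7 CPM in SMXL5pro, and 67.5 and 69.2 CPM in LTP1pro. NST3pro and SCRpro overlapped, and SMXL5pro and LTP1pro lay far below the rest. TPT was higher in NST3pro (log2 fold change 1.59 ± 0.18, adjusted p = 1.18e-06) and SCRpro (1.09 ± 0.16, adjusted p = 3.83e-05), and lower in SMXL5pro (-2.06 ± 0.20, adjusted p = 1.44e-07) and LTP1pro (-1.80 ± 0.24, adjusted p = 2.00e-05). All 4 calls were lost with all 21 libraries. The left-out NST3pro replicate 2 had 124 CPM of TPT (and a green tissue marker sum, described next, of 3609 CPM), and the left-out LTP1pro replicate 19 had 150 CPM. The summed CPM of 15 photosynthesis genes, markers of green tissue, was 23871 to 27340 in NST3pro, 7459 to 11319 in SCRpro, 1051 to 1531 in SMXL5pro and 1285 to 1380 in LTP1pro, with reads on all 15 in each of them. Their part in the TPT result was not tested.

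GPT1 (AT5G54800), which imports glucose 6-phosphate into plastids, had 77.2 and 54.1 CPM in VND7pro libraries, 59.2 and 55.4 CPM in NST3pro, and between 20.2 and 38.7 CPM in the other tissues. VND7pro and NST3pro lay above the rest. GPT1 was higher in VND7pro (log2 fold change 0.98 ± 0.24, adjusted p = 0.00499), a call lost with all 21 libraries, RLE scaling or background-subtracted counts, and without VND7pro replicate 4 or 5 or SCRpro replicate 17. GPT2 and the maltose exporter MEX1 did not pass.

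In differentiated phloem, 2 of 42 starch genes were higher, where 1% of all genes tested were, and BAM1 was lower, where 2.96% were. GWD2 (AT4G24450), a glucan, water dikinase located outside plastids, unlike GWD1, had 236 and 166 CPM in APLpro libraries. It had 108, 73.9 and 69.7 CPM in PXYpro, 76.7, 78.9 and 65.2 CPM in SMXL5pro, 57.4 and 57.9 CPM in NST3pro, 27.6, 29.5 and 33.0 CPM in SCRpro, 24.4 and 24.5 CPM in LTP1pro, and 9.06 and 13.1 CPM in VND7pro. Both APLpro libraries lay above all others. The left-out APLpro replicate 15 had 148 CPM. GWD2 was higher in APLpro by a log2 fold change of 2.43 ± 0.17 (adjusted p = 3.05e-08; 2.16 to 5.05 over all settings, the highest with background-subtracted counts), and APLpro exceeded PXYpro, the second tissue, by 1.28 ± 0.25 (adjusted p = 0.00119). The one-sided test for predominance missed the threshold (adjusted p = 0.065).

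GWD2 was lower in VND7pro (log2 fold change -2.43 ± 0.28, adjusted p = 9.37e-07), LTP1pro (-1.07 ± 0.24, adjusted p = 0.00398) and SCRpro (-0.86 ± 0.20, adjusted p = 0.00573), and higher in PXYpro (0.94 ± 0.17, adjusted p = 0.000444) and SMXL5pro (0.67 ± 0.17, adjusted p = 0.00718). Its SCRpro value turned positive with background-subtracted counts (0.51, adjusted p = 0.61; range of adjusted p over all settings 0.000527 to 0.614), which reversed its direction. The calls in LTP1pro, PXYpro and SMXL5pro were lost with all 21 libraries and that in VND7pro with background-subtracted counts. With background-subtracted counts the log2 fold change was -10.79 in LTP1pro, 3.13 in SMXL5pro and 2.89 in PXYpro, so the size of these differences depended on that setting. The LTP1pro call was also lost with RLE scaling and without replicate 20 or 21, the SCRpro call was kept in 11 of 17 fits with a library left out and lost with all 21 libraries, the PXYpro call without replicate 7, and the SMXL5pro call was kept in 9 of 17 fits with a library left out. GWD1, the dikinase acting on starch in plastids, had 44.4 to 106 CPM over the 17 libraries and did not pass (adjusted p = 0.030). GWD2 made up 67.2% of the dikinase level per length in APLpro, 33.2% in SCRpro and 14.8% in VND7pro. PWD, the phosphatases SEX4 and LSF2, and LSF1 did not pass.

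AMY1 (AT4G25000), a secreted alpha-amylase, had 53.9 and 53.1 CPM in APLpro libraries, 19.2, 19.8 and 22.4 CPM in SMXL5pro, and 3.82 to 20.0 CPM in the other tissues. Both APLpro libraries lay above all others, but the left-out APLpro replicate 15 had 21.8 CPM. AMY1 was higher in APLpro by a log2 fold change of 2.38 ± 0.36 (adjusted p = 0.000286), a call lost without replicate 13 or 14 and with all 21 libraries. The summed CPM of 5 guard cell markers was 336 to 437 in APLpro libraries and 41.3 to 115 in the other 15 libraries, with reads on all 5 in every tissue. KAT1 alone, a potassium channel gene, had 273 to 371 CPM in APLpro and 11.1 to 65.2 CPM in the others. The other 4 markers summed to 63.4 to 65.9 CPM in APLpro, within the 20.3 to 76.9 CPM of the other libraries. The plastidial AMY3 and AMY2 did not pass, with AMY3 at 46.8, 52.4 and 70.7 CPM in SCRpro and 4.55 to 38.8 CPM elsewhere.

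The remaining tissues were compared in the same way. In fibers, TPT and BAM5 were higher (8.76% of all genes tested were higher), and ISA1 and AT1G42430 were lower (3.29% were lower). ISA1 (AT2G39930), a debranching enzyme of granule synthesis, had 8.18 and 2.36 CPM in NST3pro and 10.2 to 40.5 CPM elsewhere (log2 fold change -2.10 ± 0.53, adjusted p = 0.00750), a call kept in 8 of 17 fits with a library left out. The call for ISA1 was lost with all 21 libraries and with background-subtracted counts. In the NST3pro libraries its reads per kb were below the pseudogene density, so its level there is not above the background. In SMXL5pro and LTP1pro libraries they were near that density. AT1G42430 had 15.7 and 11.4 CPM in NST3pro, below the 21.6 to 48.7 CPM elsewhere (-1.33 ± 0.31, adjusted p = 0.00420). This call was lost without NST3pro replicate 1 or 3, with all 21 libraries and with background-subtracted counts.

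In vessel elements, SS4, BAM1 and GPT1 were higher (10.3% of all genes were) and GBSS1 and GWD2 lower (2.05% were). In PXYpro, GWD2 was higher (7.38%) and GBSS1 and BAM5 lower (0.723%). In SMXL5pro, GWD2 was higher (2.13%) and BAM1, BAM3 and TPT lower (11.4%). In LTP1pro no starch gene was higher (3.11%), and GWD2, BAM3 and TPT were lower (6.12%). An unadjusted p below 0.05 in either direction was found for 10 (23.8%, against 31.7% of all genes). DESeq2 called 4, without a share of all genes to set beside it. With all 21 libraries no starch gene passed in NST3pro, PXYpro or LTP1pro.

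No gene of branching and debranching (SBE2.1, SBE2.2, ISA1, ISA2, ISA3 and LDA), of disproportionation and phosphorolysis (DPE1, DPE2, PHS1 and PHS2), or of granule binding and other functions (PTST1 and AT1G42430) passed edgeR's test over the 7 tissues, which does not show that their levels were equal. With DESeq2, ISA1, DPE1 and AT1G42430 of these roles passed. The smallest adjusted p among the 32 genes that did not pass was 0.018 and the largest, of the cytosolic glucanotransferase DPE2, was 0.89. DPE2 had 25.8 to 74.5 CPM.

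A further 17 starch-related genes were examined, and 7 of them differed over the 7 tissues (41.2%, against the 26.1% of all genes tested). This list was chosen with earlier results of these data known, so the excess cannot be taken as a result about starch-related genes. AT4G32190, annotated as myosin heavy chain-related, had 413, 226 and 278 CPM in SCRpro libraries and 24.3 to 62.3 CPM in all others (log2 fold change 3.18 ± 0.16, adjusted p = 6.04e-12). Its SCRpro libraries lay apart, as those of BAM3 did. The left-out LTP1pro replicate 19 had 88.9 CPM. AT3G55760 had 43.4, 59.5 and 91.4 CPM in SCRpro and 5.16 to 58.3 CPM elsewhere (1.301 ± 0.317, adjusted p = 0.00735, kept in 8 of 17 fits with a library left out).

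BAM9, a beta-amylase-like protein without catalytic activity, had 192 and 192 CPM in VND7pro and 22.2 to 116 CPM elsewhere (log2 fold change 2.08 ± 0.20, adjusted p = 7.76e-08). BAM9 was also higher in SCRpro (0.80, adjusted p = 0.00637) and lower in SMXL5pro (-1.54, adjusted p = 2.51e-05). The SCRpro call was kept in 7 of 17 fits with a library left out, and was lost with all 21 libraries and with background-subtracted counts. NST3pro was higher for the ATP and ADP carriers of plastids NTT1 (123 and 131 CPM, against 27.3 to 135 CPM elsewhere) and NTT2 (78.2 and 86.2 CPM, against 2.80 to 53.9 CPM), the cytosolic phosphoglucomutase PGM3 (145 and 316 CPM, against 38.1 to 221 CPM) and the plastidial fructose bisphosphatase CFBP1 (100 and 69.6 CPM, against 21.7 to 56.1 CPM). Their log2 fold changes in NST3pro were 0.93 ± 0.19, 1.92 ± 0.32, 1.22 ± 0.21 and 1.39 ± 0.26. The call for NTT1 was lost with background-subtracted counts and without NST3pro replicate 1 or 3, and that for NTT2 with background-subtracted counts. The call for PGM3 was lost with all 21 libraries and without NST3pro replicate 3 (log2 fold change down to 0.57, adjusted p up to 0.18), and that for CFBP1 with all 21 libraries, with background-subtracted counts and without NST3pro replicate 1. The part of the green tissue markers given above, which were also highest in NST3pro, was not tested.

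The second comparison set GFP-positive against GFP-negative nuclei of the same line, all libraries included, at an adjusted p of 0.05. In the APLpro line GWD2 was the only starch gene called, where 0.0994% of all genes tested were. It had 236, 166 and 148 CPM in GFP-positive nuclei, against 21.1, 25.8 and 31.2 CPM in GFP-negative nuclei, without overlap (log2 fold change 2.82 ± 0.43, adjusted p = 0.016). The call was lost without GFP-positive replicate 14 or GFP-negative replicate 43, 44 or 45. AMY1 had 53.9, 53.1 and 21.8 CPM in GFP-positive nuclei, against 13.2, 20.6 and 10.9 CPM in GFP-negative nuclei, and missed the threshold (1.58 ± 0.43, adjusted p = 0.38). BAM3 had 66.9, 48.6 and 29.2 CPM in GFP-positive nuclei, against 94.1, 157 and 57.0 CPM in GFP-negative nuclei, where the sets overlap (-1.06 ± 0.44, adjusted p = 0.51). Of the guard cell markers, KAT1 had 120 to 371 CPM in GFP-positive and 16.6 to 34.9 CPM in GFP-negative nuclei of this line, and the other 4 summed to 63.4 to 65.9 CPM and 40.6 to 62.0 CPM.

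In the SMXL5pro line no starch gene passed, where 0.0066% of all genes did, with 5 at an unadjusted p below 0.05 (BAM1, BAM4, BAM6, DPE1 and PTST1; 11.9%, against 6.75% of all genes) and 0 by DESeq2. Log2 fold changes of the 42 lay between -1.15 and 1.05. In the NST3pro line no starch gene passed either, where 0% of all genes did, with 5 at an unadjusted p below 0.05 (ISA1, ISA2, GWD2, LSF1 and PHS1; 11.9%, against 5.91% of all genes) and 0 by DESeq2. All 5 were lower in GFP-positive nuclei on average. For LSF1 this direction rested on GFP-negative replicate 47, which had 216 of its 725545 reads on the gene. GFP-negative replicates 46 and 48 had 27 of 5541180 and 88 of 13026007 reads on LSF1, both below the GFP-positive mean as CPM. The GFP-negative mean of LSF1 was 204 CPM, with a standard deviation of 342 CPM. GFP-negative replicate 47 of this line, the shallowest library, had a summed CPM of the 42 genes of 4829, against 2467 and 2274 in the other GFP-negative libraries of the line, and 641 CPM of GWD2. In a joint fit of the 18 libraries of the 3 lines, 1 starch gene, GWD2, was called in the NST3pro line. Its mean in this line was 63.0 CPM in GFP-positive and 297 CPM in GFP-negative nuclei. The 641 CPM of replicate 47 are part of the GFP-negative mean. The share of all genes called in the joint fit is not given, so this call has no background to be set against. In edgeR's fit of the NST3pro line alone GWD2 missed the threshold (log2 fold change -2.24 ± 0.77, adjusted p = 0.81).

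**Figure D5:**
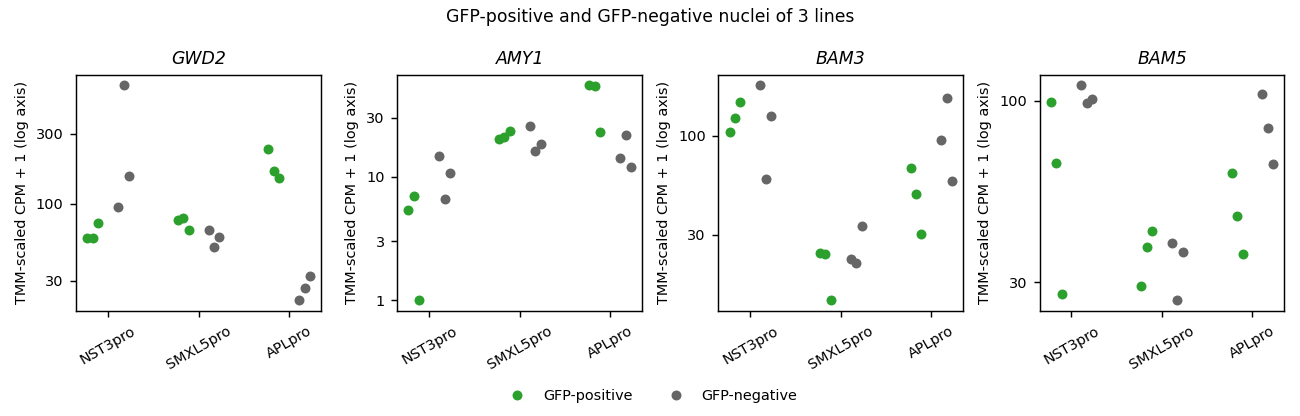
CPM + 1 (log axis) of 4 starch genes in GFP-positive and GFP-negative nuclei of 3 lines, each point being a library. GWD2 in the APLpro line is 148 to 236 CPM in GFP-positive nuclei, above all 3 GFP-negative libraries.

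Whether the difference between GFP-positive and GFP-negative nuclei depended on the line was tested with interaction contrasts. Between the NST3pro line and the APLpro line, GWD2 was the only starch gene to pass, where 0.436% of all genes tested passed, and 10 starch genes had an unadjusted p below 0.05 (23.8%, against 15.4% of all genes). No starch gene passed between the NST3pro and SMXL5pro lines, where 0.00313% of all genes did and 6 starch genes had an unadjusted p below 0.05 in edgeR (14.3%, against 12.6%), or between the SMXL5pro and APLpro lines, where 0.00627% did and 2 had such a p (4.76%, against 1.64%). DESeq2 was not run for these contrasts.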

How the data were processed

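The authors trimmed reads with Cutadapt 2.3 and aligned them with STAR 2.5.0a to TAIR10, keeping reads with a single hit. The deposited values are unnormalised counts of reads per gene of Araport11, made by the authors over whole gene bodies with introns and without regard to strand, so reads in stretches shared by genes were lost to both, which touches 15 of the 42 starch genes. SMART-seq2 adds no molecular identifiers. Libraries were grouped by line and GFP population from the labels. Nothing says that replicates came from separate plants, so p-values measure the spread between these libraries, which may be technical.

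Counts were tested with edgeR 4.0.16 in R 4.3.3 (TMM, filterByExpr, quasi-likelihood F test, two-sided, Benjamini-Hochberg). Each tissue was set against the mean of the other 6 at an adjusted p of 0.01. Within each line the sorted populations were compared at 0.05, and lines by interaction contrasts. Fold changes carry standard errors. CPM used TMM factors over all 30 libraries, whereas each fit had its own. Gene lengths, neighbours and promoters came from RefSeq TAIR10.1. Alternatives were all 21 GFP-positive libraries, RLE scaling, no filter, DESeq2 1.42.0, subtraction of pseudogene read density, and leaving out each library. Predominance took the largest of 6 one-sided p-values per gene. Figures used matplotlib 3.10.9.

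All 42 genes are accounted for by role. Library values are given for those differing over the tissues or called in SCRpro. The genes and lists were chosen with earlier results of these data known.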

Additional observations from a re-analysis of the deposited data

Results flagged for a closer look

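The effect of the sort on GWD2 differed between 2 lines. Its log2 fold change, GFP-positive over GFP-negative nuclei, was lower in the NST3pro line than in the APLpro line by an interaction of -4.91 ± 0.67 (SE, adjusted p = 0.00284, edgeR). GWD2 had 57.4, 57.9 and 73.6 CPM in GFP-positive nuclei of the NST3pro line, against 94.6, 641 and 154 CPM in GFP-negative nuclei, and was higher in all 3 GFP-positive libraries of the APLpro line. Without NST3pro GFP-negative replicate 47, the shallowest library, the interaction was -3.83 (adjusted p = 0.000313). Over all settings tried the adjusted p was 0.000154 to 0.0228.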

How the results depend on the processing

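No paired analysis was possible because the labels number the libraries serially and the groups compared share no replicate number. They do not say which GFP-positive and GFP-negative libraries came from the same preparation. Over the 7 tissues 10 of 42 starch genes passed, 6 of 42 with all 21 libraries and 23 of 42 with DESeq2. The share of all genes called is not given for the alternative settings, here and in the counts that follow. A changed count can therefore not be read as a change in the starch genes alone. Counts of called starch genes in a tissue against the others, with the values that moved by over 1.5 times, were as follows. NST3pro had 4, which became 0 with all 21 libraries and 2 with background-subtracted counts. VND7pro had 5, which became 3 with all 21 libraries, 3 with RLE, 1 with background-subtracted counts and 8 with DESeq2. PXYpro had 3, which became 0 with all 21 libraries and 6 with DESeq2. SMXL5pro had 4, which became 2 and 9. APLpro had 3, which became 1 and 6. SCRpro had 8, which became 4 with all 21 libraries. LTP1pro had 3, which became 0 with all 21 libraries. For GFP-positive against GFP-negative NST3pro nuclei, 0 became 1 in a fit of all 18 libraries.

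Leaving out each library gave 8 to 12 over tissues, 2 to 5 in NST3pro, 2 to 5 in VND7pro, 1 to 4 in PXYpro, 3 to 6 in SMXL5pro, 1 to 4 in APLpro, 5 to 9 in SCRpro, 1 to 3 in LTP1pro, 1 to 1 for predominance, 0 to 0 in the sorts of the NST3pro and SMXL5pro lines, 0 to 1 in that of the APLpro line, and 1 to 4 for differences between lines. GWD2 in SCRpro reversed to 0.51 with background-subtracted counts; the cause was not tested. Of 1328 values of single genes, 1119 kept their call, 208 lost it and 1 reversed. RLE moved the median log2 fold change of all genes in NST3pro to -0.33 (TMM -0.16), in VND7pro to -0.25 (-0.08), in PXYpro to -0.09 (0.10), in SMXL5pro to 0.58 (0.36) and in LTP1pro to 0.52 (0.33). With 2 libraries for 4 tissues, differences that missed the threshold cannot be taken as absent. Intervals and errors do not cover PCR amplification before counting.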

Other observations

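The left-out LTP1pro replicate 19 lay within the range of the SCRpro libraries for BAM1, but outside it for the other genes given here. It had 575 CPM of BAM1 (SCRpro 429 to 630 CPM) and 125 CPM of ApL3 (SCRpro 85.4 to 109 CPM), but 130 CPM of BAM3 (SCRpro 577 to 996 CPM) and 27.7 CPM of GBSS1 (SCRpro 112 to 219 CPM). The summed CPM of the 42 starch genes was 1943 in this library, against 1306 and 1465 in the other LTP1pro libraries. Its pseudogene density was 1.03 CPM per kb, against 4.43 and 4.13 CPM per kb in those libraries.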
